A study of Rattus norvegicus with 12 samples.

Results

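A set of 10 genes of the matrix metalloproteinase (MMP) system were examined in rat knee articular cartilage. They were the stromelysin gene Mmp3, the collagenase gene Mmp13, the gelatinase A gene Mmp2, the membrane-type genes Mmp14 and Mmp16, the macrophage elastase gene Mmp12, the membrane-anchored Mmp23, and the tissue inhibitor genes Timp1, Timp2 and Timp3. Every probe set, the group of short probes that reads 1 transcript on these arrays, was taken whose only gene symbol in the array's annotation was one of the 10 genes. This gave 18 of the 31099 probe sets. Of these, 14 exceeded a log2 value of 4 in at least 3 of the 12 arrays and were tested, and they covered all 10 genes.

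Total RNA of knee cartilage was hybridized to 12 Affymetrix arrays in 4 groups with 3 arrays each. Rats had either an operation that brings on osteoarthritis (OA) or a sham operation, and each kind was sampled 2 weeks and 8 weeks later. The labels refer to an earlier article for the operation and give no strain, sex or age of the rats, and do not tie the arrays of a group to different rats. The p-values therefore take their error from the spread among these arrays, which may be technical. All values are the deposited log2 values, on which a difference of 1 is a 2-fold change, and a value from 1 probe set is not set against that of another, because probe sets differ in brightness for the same amount of RNA.

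MMPs are secreted or membrane-bound zinc proteases that cut the proteins of the extracellular matrix. They are made as inactive precursors, are activated by removal of their propeptide, and are held in check by TIMPs, which bind the active site. In cartilage, collagenase 3 (the product of Mmp13) makes the first cut in the type II collagen helix, and stromelysin 1 (the product of Mmp3) cuts proteoglycans and activates other MMP precursors. Genes of both enzymes are known to be induced through an AP-1 site close to the TATA box of their promoters.

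Mmp13, Mmp12 and Mmp3 lie next to each other in this order among the MMP genes on rat chromosome 8. The promoters of Mmp3 and Mmp13 are shown because the mRNAs of these neighbouring genes differed in opposite directions between OA and sham at 8 weeks. The sequences are from RefSeq on the build GRCr8, run from 250 bases before to 50 bases after the annotated gene start, and have the AP-1 motif and the TATA box in capitals. Mmp3 is at chr8:12925031-12925330 and Mmp13 at chr8:12782579-12782878, both on the plus strand.
Mmp3: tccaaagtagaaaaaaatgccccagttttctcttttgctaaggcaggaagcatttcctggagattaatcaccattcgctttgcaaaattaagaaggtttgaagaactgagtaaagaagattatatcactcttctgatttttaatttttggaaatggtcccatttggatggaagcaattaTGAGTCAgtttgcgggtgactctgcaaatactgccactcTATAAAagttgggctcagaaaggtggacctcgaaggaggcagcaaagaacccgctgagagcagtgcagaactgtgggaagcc
Mmp13: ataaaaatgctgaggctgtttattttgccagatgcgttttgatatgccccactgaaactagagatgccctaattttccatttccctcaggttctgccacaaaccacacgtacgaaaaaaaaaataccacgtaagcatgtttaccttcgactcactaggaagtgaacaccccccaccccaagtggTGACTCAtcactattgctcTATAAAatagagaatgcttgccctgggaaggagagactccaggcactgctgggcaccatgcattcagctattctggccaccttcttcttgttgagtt
The AP-1 motif searched was TGANTCA on both strands, and the TATA box was TATAAA on the strand of the gene. The Mmp3 window held TGAGTCA from position -71 and TATAAA from position -32, counted back from the gene start, and the Mmp13 window held TGACTCA from position -66 and TATAAA from position -47. Promoters of 7 of the 10 genes were in the RefSeq table. Of these 7, the AP-1 motif was in 3, the promoters of Mmp3, Mmp13 and Mmp12, and the same 3 held the TATA box. Over all 33469 promoter windows, 7.33% held the AP-1 motif and 8.8% the TATA box. The motif TGTGGT, bound by RUNX factors, was in the Mmp13 window at position -149 on the opposite strand and in no other of the 7 windows, against 17.3% of all windows. A match is a description of the letters and not evidence of a bound factor.

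The chondrocyte markers were high in every array, with Col2a1 between 15.88 and 16.27 and the mean over 9 of 11 markers between 13.86 and 14.45. Markers of other cells were read as well. The mean level of 12 skeletal muscle markers was 9.85 to 14.48 in OA and 5.75 to 10.41 in sham at 8 weeks, and 5.41 to 7.84 in OA and 5.74 to 6.54 in sham at 2 weeks. The highest of these, 14.48, was OA 8 weeks replicate 1, and of the sham 8 weeks arrays the highest was replicate 1. The mean level of 13 macrophage markers was 6.52 to 6.59 in OA and 7.56 to 10.23 in sham at 8 weeks. That of 5 osteoclast markers was 9.48 to 10.82 in OA and 12.53 to 12.87 in sham, and that of 8 osteoblast and osteocyte markers was 10.44 to 11.18 in OA and 11.97 to 12.27 in sham, also at 8 weeks. At 8 weeks 13 of 13 macrophage markers (median -2.54, 4 called), 5 of 5 osteoclast markers (median -2.53, 5 called) and 8 of 8 osteoblast and osteocyte markers (median -1.21, 3 called) were lower in OA. So were 4 of 4 endothelial (median -1.76, 0 called), 3 of 5 synovial fibroblast and tendon (median -0.64, 1 called) and 6 of 9 chondrocyte markers (median -0.15, 1 called). Of the muscle markers 11 of 12 were higher (median 4.75), and 0 were called. Called means an adjusted p under 0.05 by limma, as for 3.46% of all probe sets. A fit with the muscle level as a covariate is given below where it ended a call and for some of the other values. That level itself differed between OA and sham at 8 weeks, with means of 11.84 and 7.89. The covariate thus carries part of the OA and sham difference, and in this fit the muscle level and the operation cannot be told apart. The part of the other markers in the results was not tested.

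The comparison of OA with sham asked which members differ after the operation that induces the disease, at an early and at a later time. At 2 weeks none of the 14 probe sets passed limma's moderated test with Benjamini-Hochberg adjustment over 15934 probe sets, at a background of 0% called. None of the 14 had an unadjusted p under 0.05, and of all 15934 probe sets only 269 did. The 14 differences ranged from -0.18 to 0.43, with a median of -0.005 for the members and -0.01 for all probe sets. At 8 weeks 3 of the 14 passed, against a background of 3.46% of all probe sets. Mmp3 rose (1.51% of all probe sets rose), while Mmp13 and 1 of the 2 tested probe sets of Mmp23 fell (1.95% of all fell). The median of the 14 differences at 8 weeks was -0.17, against 0.01 for all probe sets. With the replicate number as a block within each time, 5 of 14 passed at 8 weeks, with Mmp2 and the brighter probe set of Mmp14 added.

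**Figure D1:**
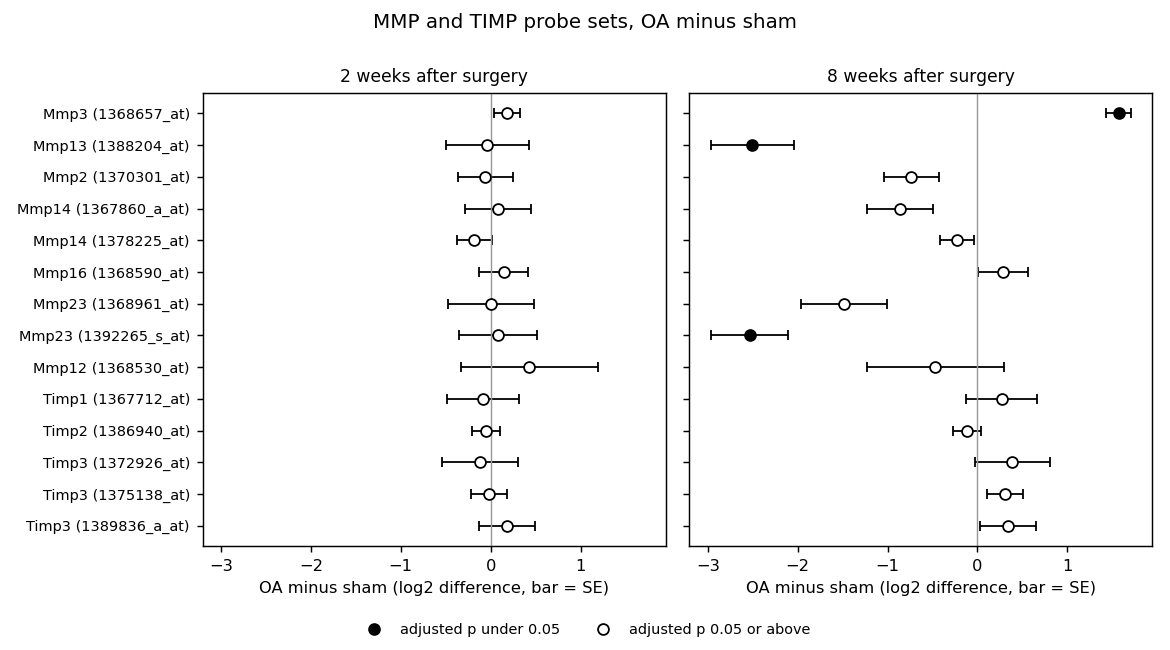
Log2 difference of OA minus sham for the 14 tested probe sets at 2 weeks (left) and 8 weeks (right), with bars for the standard error from limma and filled points for an adjusted p under 0.05. At 2 weeks all 14 points lie between -0.18 and 0.43, and at 8 weeks Mmp3 stands at 1.57 while Mmp13 and a probe set of Mmp23 stand at -2.51 and -2.54.

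Mmp3 read 14.69, 14.88 and 15.20 in OA arrays at 8 weeks, against 13.48, 13.18 and 13.40 in sham arrays at 8 weeks. The lowest OA array thus lay above the highest sham array by more than the whole spread of either group. The difference was 1.57 ± 0.14 on the log2 scale (SE, 3 arrays per group), or 2.97-fold higher in OA, with an adjusted p of 0.000771 from limma. With only the 6 arrays compared the call ended (adjusted p = 0.0525), and with the muscle covariate it was 1.68 (adjusted p = 0.0158). At 2 weeks Mmp3 read 14.83, 14.95 and 14.95 in OA, against 14.91, 14.69 and 14.59 in sham, and these groups overlapped (0.18 ± 0.14, adjusted p = 1.0). In bulk tissue, fewer cells of a type and less RNA per cell cannot be told apart, and this applies to each difference given here.

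The arrays in which Mmp3 stood apart were the sham arrays at 8 weeks. Within OA, Mmp3 averaged 14.93 ± 0.26 at 8 weeks and 14.91 ± 0.07 at 2 weeks (SD, n = 3 each), a difference of 0.01 ± 0.14 with overlapping arrays. Within sham it averaged 13.36 ± 0.16 at 8 weeks and 14.73 ± 0.16 at 2 weeks, and it fell by 1.37 ± 0.14 (adjusted p = 4.45e-05). In the order of the group means, OA 8 weeks, OA 2 weeks and sham 2 weeks overlapped with their neighbours, and sham 8 weeks lay apart below them. The difference between both OA effects, the interaction term, was 1.39 ± 0.20 (adjusted p = 0.0415), and Mmp3 was the 1 member of 14 that passed this test. Of all probe sets 0.138% passed it, 0.0628% with a positive and 0.0753% with a negative term. That call ended with the replicate block within each time (adjusted p = 0.0692), a plain replicate block (0.0772), no filter (0.0770), equal array medians (0.0830) and the muscle covariate (0.122). It also ended when any 1 of 9 arrays was left out, namely the 6 arrays of 2 weeks, OA 8 weeks replicate 2 and sham 8 weeks replicates 2 and 3, with adjusted p from 0.0686 to 0.120.

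Mmp13 read 10.66, 12.56 and 12.58 in OA arrays at 8 weeks, against 13.92, 14.80 and 14.59 in sham arrays at 8 weeks. No OA array reached the lowest sham array. OA 8 weeks replicate 1, the array with the highest muscle level, was the lowest of all 12. Mmp13 fell by 2.51 ± 0.46 (adjusted p = 0.0219), which is 5.68-fold lower in OA. Without OA 8 weeks replicate 1 the difference was -1.87 ± 0.27 (adjusted p = 0.0121), and without both number 1 arrays at 8 weeks it was -2.13 ± 0.21 (adjusted p = 0.00270). The call ended without sham 8 weeks replicate 2 (adjusted p = 0.0834) or replicate 3 (adjusted p = 0.0889), with the muscle level as a covariate (-1.52 ± 0.47, adjusted p = 0.267) and with only the 6 arrays compared (adjusted p = 0.146).

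At 2 weeks Mmp13 read between 14.47 and 15.17 in OA, against between 14.80 and 15.01 in sham, with overlapping arrays (-0.04 ± 0.46, adjusted p = 1.0). Within OA it fell between the times, with means of 11.93 ± 1.10 at 8 weeks and 14.88 ± 0.37 at 2 weeks (-2.95 ± 0.46, adjusted p = 0.00074). Within sham the means were 14.44 ± 0.46 at 8 weeks and 14.92 ± 0.11 at 2 weeks, and that difference did not pass (-0.48 ± 0.46, adjusted p = 0.620). Mmp13 therefore had its low values in the OA 8 weeks arrays, while Mmp3 had them in the sham 8 weeks arrays. The interaction for Mmp13 was -2.47 ± 0.66 and did not pass (adjusted p = 0.216), although it passed without both number 1 arrays at 8 weeks (-2.09 ± 0.28, adjusted p = 0.0199). The SD of Mmp13 was largest in the OA 8 weeks arrays, and limma's test shares 1 error over the 4 groups.

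**Figure D2:**
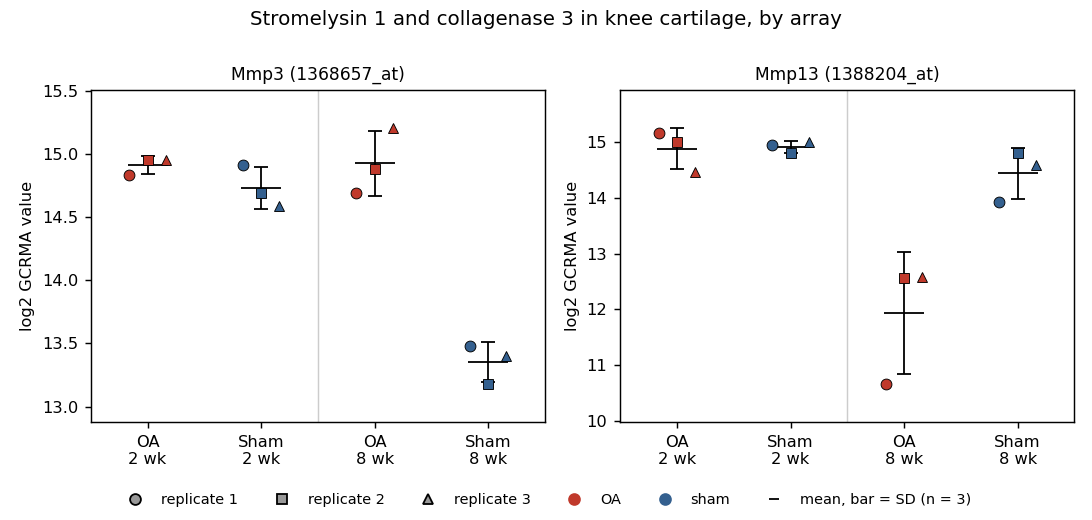
Deposited log2 values of Mmp3 (left) and Mmp13 (right) in each of the 12 arrays, with OA in red, sham in blue, a marker shape per replicate number, and a line and bar for the mean and SD of 3 arrays. Mmp3 is low in the 3 sham arrays at 8 weeks (13.18 to 13.48), and Mmp13 is low in the 3 OA arrays at 8 weeks (10.66 to 12.58).

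Mmp2 encodes gelatinase A, which cuts denatured collagen, and Mmp14 encodes the membrane-bound collagenase that, with TIMP2, activates the Mmp2 precursor on the cell surface. Mmp2 read 12.83, 13.44 and 13.63 in OA at 8 weeks, against 13.42, 14.51 and 14.19 in sham. Its difference was -0.74 ± 0.30 and did not pass (adjusted p = 0.198). On its brighter probe set, Mmp14 read 11.19, 11.59 and 12.00 in OA at 8 weeks, against 11.61, 12.84 and 12.91 in sham (-0.86 ± 0.37, adjusted p = 0.216). For both genes sham 8 weeks replicate 1 lay among the OA arrays, and the other sham arrays lay above all OA arrays. Each OA array was lower than the sham array of its own number, a pairing that the labels do not give. With the number as a block within each time, Mmp2 fell at an adjusted p of 0.0353 (-0.74 ± 0.13) and the brighter probe set of Mmp14 at 0.0488 (-0.86 ± 0.18). Without sham 8 weeks replicate 1, Mmp14 differed by -1.28 ± 0.30 (adjusted p = 0.0418). With the muscle covariate the differences shrank to -0.098 for Mmp2 (adjusted p = 0.956) and -0.17 for Mmp14 (adjusted p = 0.932). Another probe set of Mmp2 read 1.64 to 1.70 in all arrays and was left out.

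The other probe set of Mmp14 was dim and showed another pattern. It read 3.44, 3.86 and 3.82 in OA at 8 weeks and 3.82, 4.14 and 3.83 in sham at 8 weeks, against 6.39, 6.41 and 5.74 in OA at 2 weeks and 6.42, 6.40 and 6.26 in sham at 2 weeks. Its OA minus sham difference at 8 weeks was -0.22 ± 0.19 (adjusted p = 0.542 from limma), which passed in 0 of 23 alternatives. This probe set fell between the times in both arms, and the fitted differences were -2.47 ± 0.19 in OA (adjusted p = 4.2e-06) and -2.43 ± 0.19 in sham (adjusted p = 5.3e-06). The 8-week levels lie near the filter of log2 4, so the sizes of these falls are uncertain. The brighter probe set of the gene did not pass in either arm, with means of 11.59 ± 0.40 at 8 weeks and 12.28 ± 0.48 at 2 weeks in OA, and of 12.45 ± 0.73 at 8 weeks and 12.19 ± 0.26 at 2 weeks in sham. Within OA both probe sets of Mmp14 were lower at 8 weeks, the brighter one by 0.68 ± 0.37 without passing. Within sham their signs differed, with the brighter one at 0.26 ± 0.37. No direction over time is given for the gene.

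Mmp23 encodes an MMP that is held in the membrane by an amino-terminal anchor. One of its probe sets, which carries the suffix _s_at and is called the shared one here, read 4.06, 4.05 and 4.26 in OA at 8 weeks, against 5.67, 7.60 and 6.71 in sham. It fell by 2.54 ± 0.43 (5.80-fold lower in OA, adjusted p = 0.0161), and this call ended without OA 8 weeks replicate 2 (adjusted p = 0.0555), without sham 8 weeks replicate 3 (0.0713), with the muscle covariate (0.227) or with only the 6 arrays compared (0.108). The other, called the specific one here, read 3.91, 4.05 and 3.95 in OA, against 4.01, 6.39 and 5.97 in sham at 8 weeks. It differed by -1.49 ± 0.48 without passing (adjusted p = 0.117), since sham 8 weeks replicate 1 lay among the OA arrays, and without that array it differed by -2.21 ± 0.15 (adjusted p = 0.000268). With array weights the specific one differed by -1.89 ± 0.39 (adjusted p = 0.0185). It differed by -1.02 ± 0.44 without sham 8 weeks replicate 2 (adjusted p = 0.311) and by -0.55 ± 0.52 with the muscle covariate (adjusted p = 0.761). In a fit of gene means, the mean of both probe sets differed by -2.01 ± 0.43 (adjusted p = 0.0348). Both probe sets were uniform and close to log2 4 in the 3 OA arrays at 8 weeks, so the sizes of the falls are uncertain. The suffix _s_at marks a probe set whose probes may match transcripts of more than 1 gene, so the gene behind its reading is uncertain.

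At 2 weeks the specific probe set of Mmp23 read 7.69, 7.74 and 7.70 in OA, against 7.93, 7.51 and 7.70 in sham, and the groups overlapped. Between the times it fell in OA (-3.74 ± 0.48, adjusted p = 0.000171) and in sham (-2.25 ± 0.48, adjusted p = 0.0067). The call in sham ended with only the 6 arrays compared (adjusted p = 0.0645). The shared probe set fell in OA (-2.68 ± 0.43, adjusted p = 0.000874) and did not pass in sham, with means of 6.66 ± 0.97 at 8 weeks and 6.73 ± 0.32 at 2 weeks. The interaction of the shared probe set was -2.62 ± 0.61 (adjusted p = 0.158), and that of the specific probe set was -1.49 ± 0.67 (adjusted p = 0.455). Both interactions passed without both number 1 arrays at 8 weeks (adjusted p = 0.0456 for the shared and 0.00734 for the specific one). They also passed without sham 8 weeks replicate 1 (0.0300 and 0.00437), and the shared one passed with array weights (0.0449). Another probe set of Mmp23 read 2.47 to 2.69 in all arrays and was left out.

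Mmp16, the gene of a second membrane-type MMP, read 10.89, 11.05 and 11.02 in OA at 8 weeks, against 10.06, 11.17 and 10.89 in sham (0.28 ± 0.27, adjusted p = 0.598). Its 4 groups overlapped throughout. Mmp12, the macrophage elastase gene, was dim and read 3.44, 3.97 and 3.86 in OA at 8 weeks, against 3.57, 4.28 and 4.83 in sham (-0.47 ± 0.76, adjusted p = 0.782). Its highest value was 5.997 in OA 2 weeks replicate 1 and its lowest 2.38 in OA 2 weeks replicate 3, so a single group held the whole range of the 12 arrays.

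**Figure D3:**
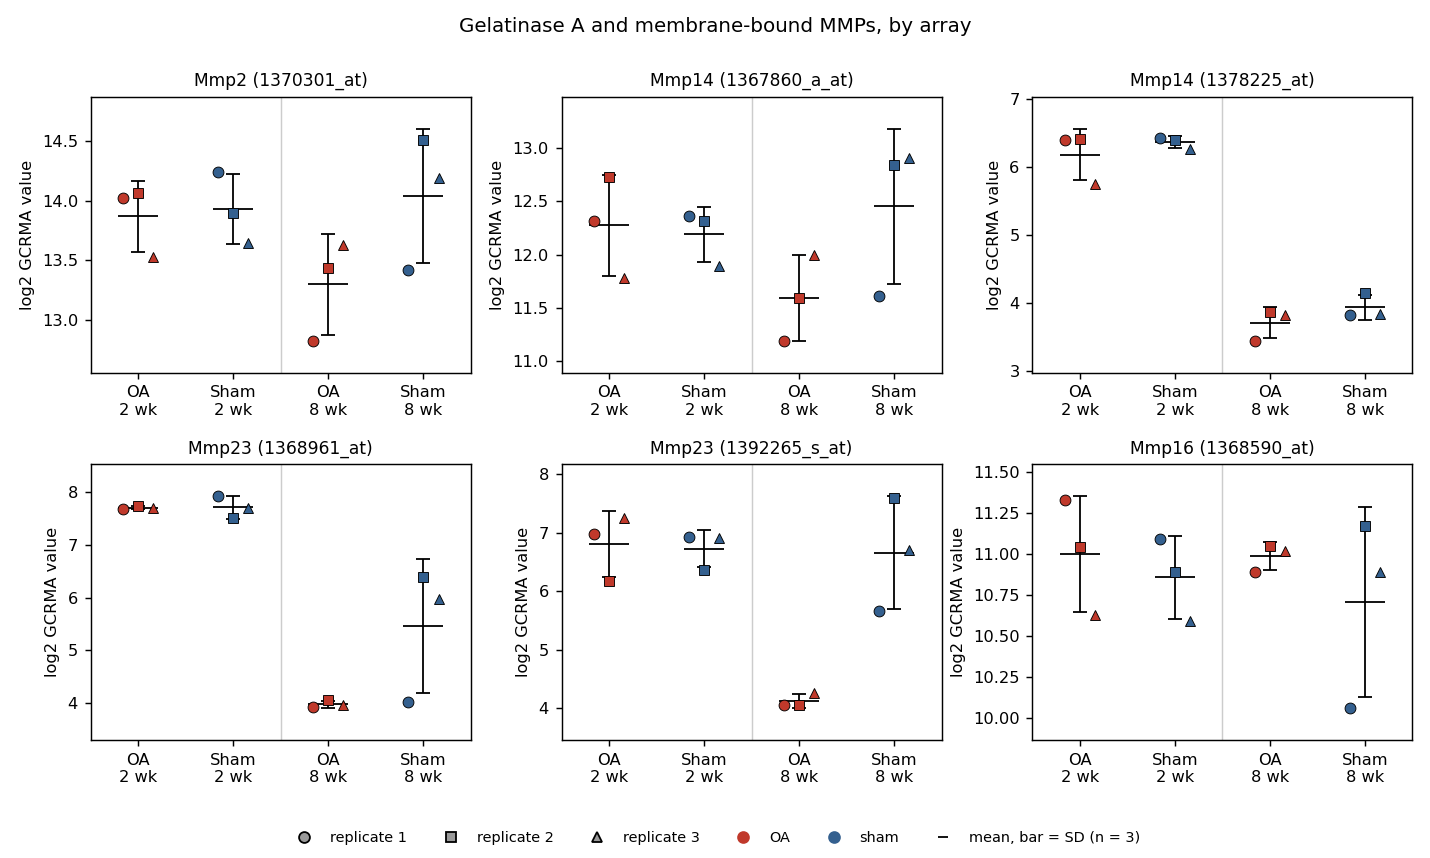
Deposited log2 values in each of the 12 arrays for Mmp2, both probe sets of Mmp14, both tested probe sets of Mmp23 and Mmp16, drawn with OA in red, sham in blue and the mean and SD of 3 arrays. In Mmp2, the brighter Mmp14 probe set and both Mmp23 probe sets, replicate 1 is the lowest of the sham 8 weeks arrays, and Mmp23 is near 4 in all OA 8 weeks arrays.

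The inhibitor genes did not pass in any of the 5 comparisons. Timp1, which encodes a secreted inhibitor induced by many cytokines, read 12.39, 13.27 and 13.37 in OA at 8 weeks, against 11.90, 13.19 and 13.14 in sham (0.27 ± 0.40, adjusted p = 0.756). Timp2 read 13.33, 13.28 and 13.78 in OA, against 13.40, 13.76 and 13.60 in sham (-0.12 ± 0.16, adjusted p = 0.712). Timp3, whose product binds to the matrix and also inhibits aggrecanases, read 14.60, 14.87 and 15.07 in OA, against 14.36, 14.66 and 14.61 in sham on its brightest probe set (0.30 ± 0.20, adjusted p = 0.425). The 2 other tested probe sets of Timp3 differed by 0.39 ± 0.42 and 0.34 ± 0.31. With the muscle covariate Timp1 differed by 1.02 and the probe sets of Timp3 by 0.43 to 1.22, none of which passed. In each inhibitor the OA and sham arrays overlapped at both times, and a test that is not passed does not show that the levels were equal. For Timp2 and Timp3, 1 probe set each stayed out, at 3.22 to 4.32 and at 2.14 to 2.21.

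**Figure D4:**
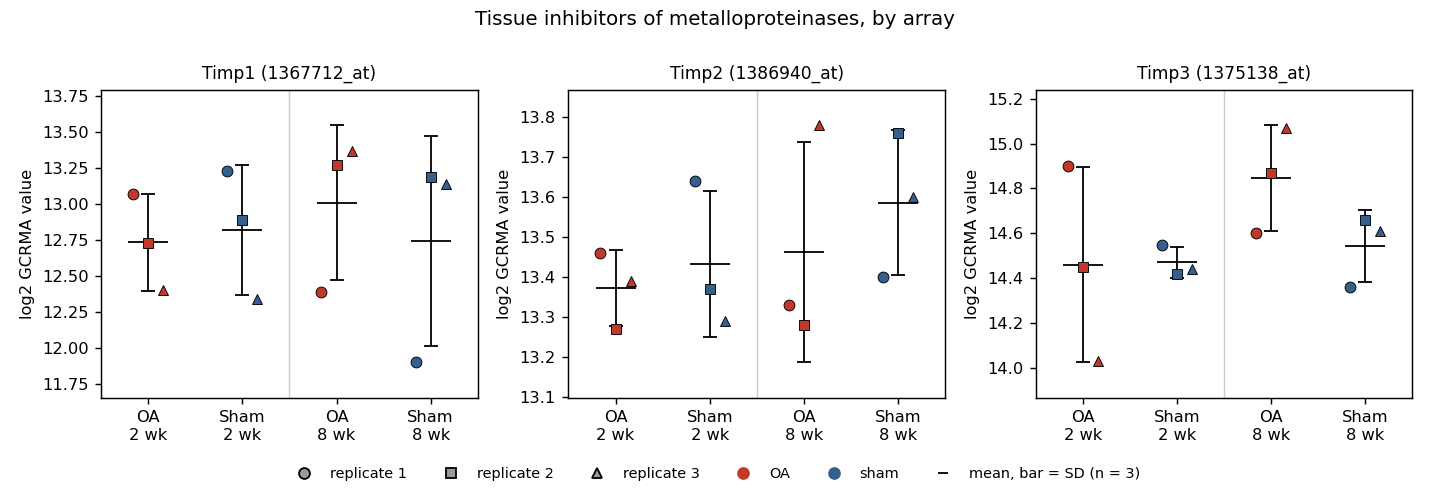
Deposited log2 values of Timp1, Timp2 and the brightest probe set of Timp3 in each of the 12 arrays, with OA in red, sham in blue and the mean and SD of 3 arrays. OA and sham overlap at both times, and the whole range of Timp2 is 13.27 to 13.78.

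Most members shared an order of arrays within the groups. Sham 8 weeks replicate 1 was the lowest of its group in 13 of the 14 probe sets, Mmp3 being the exception, and OA 8 weeks replicate 1 was the lowest of its group in 12 of the 14. At 2 weeks replicate 3 was the lowest in 10 of 14 in OA and in 10 of 14 in sham. Members share arrays and their normalization, so these counts are not independent observations. Replicate 1 also had the highest muscle marker level of its group at 8 weeks, in OA and in sham. At 2 weeks replicate 3 had the lowest muscle level in OA (5.41) and the middle one in sham (5.94). The macrophage marker level was lowest in replicate 1 at 8 weeks (6.52 in OA, 7.56 in sham) and in replicate 3 at 2 weeks (8.87 in OA, 8.48 in sham). In OA at 8 weeks that level ranged only from 6.52 to 6.59. A link of marker levels to the order of arrays was not tested.

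Between the times, 4 of 14 probe sets passed within OA, all lower at 8 weeks, against a background of 34.1% called, 21.7% higher and 12.4% lower. Within sham 3 of 14 passed, all lower, against 18.7% called, 12.5% higher and 6.24% lower. The probe sets that fell in OA were Mmp13, the dim one of Mmp14 and both of Mmp23, and those that fell in sham were Mmp3, the dim one of Mmp14 and the specific one of Mmp23. The arrays did not overlap between the times in 4 of 14 members within OA (46.6% of all probe sets) and in 3 of 14 within sham (35.2%). Between OA and sham they did not overlap in 3 of 14 at 8 weeks (25.1% of all) and in 0 of 14 at 2 weeks (5.38%). Counted in either direction, the members' shares over time, 28.6% in OA and 21.4% in sham, lie near those of all probe sets. Since all these calls were falls, the same shares lie above those of all probe sets that fell, a difference that was not tested. The labels name no processing batch, and one that went with the time cannot be told apart from it.

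**Figure D5:**
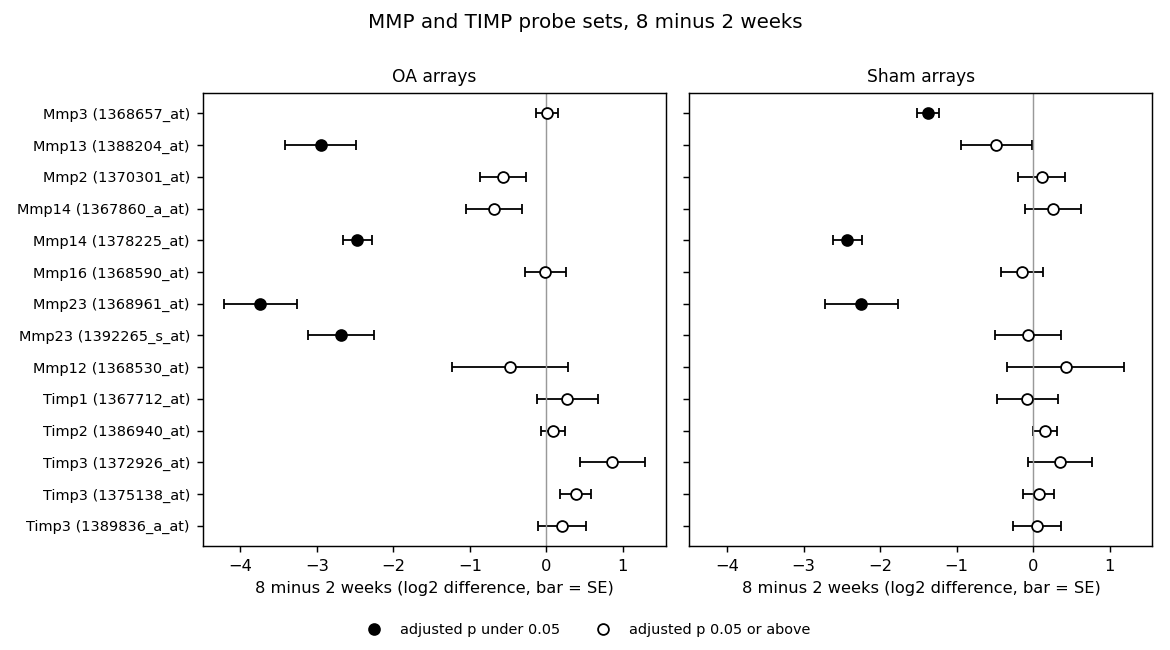
Log2 difference of 8 minus 2 weeks for the 14 tested probe sets in OA (left) and in sham (right), with bars for the standard error and filled points for an adjusted p under 0.05. Mmp13 is at -2.95 in OA and -0.48 in sham, while Mmp3 is at 0.01 in OA and -1.37 in sham.

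The other MMPs and TIMP4 were mostly below the detection filter. Of 16 such genes, 11 were on the array with a probe set of their own and 4 were tested. At 8 weeks 1 of the 4 fell, against 1.95% of all probe sets. It was the gelatinase B gene Mmp9, which osteoclasts express strongly. Mmp9 read 8.62, 10.33 and 10.59 in OA, against 13.12, 13.46 and 13.82 in sham at 8 weeks (-3.62 ± 0.45, adjusted p = 0.00499). The call ended with the muscle covariate (adjusted p = 0.0785) or with only the 6 arrays compared (0.0880). The OA 8 weeks arrays also had the lowest osteoclast marker levels, a list that contains Mmp9. The brain-enriched membrane-type gene Mmp24 differed by 0.29 ± 0.14 (adjusted p = 0.278). Within OA, Mmp9 was lower at 8 than at 2 weeks (-2.80 ± 0.45, adjusted p = 0.000828), while Mmp24 (0.63 ± 0.14, adjusted p = 0.00696) and the inhibitor gene Timp4 (2.81 ± 0.69, adjusted p = 0.0107) were higher. Mmp24 was higher at 8 weeks within sham too (0.46 ± 0.14, adjusted p = 0.0498). That call in sham ended with equal array medians (adjusted p = 0.272), quantile normalization (0.0942), a filter at log2 6 (0.0751) or a robust variance trend (0.0664). It also ended without any 1 of 9 arrays, the 6 of 2 weeks, OA 8 weeks replicate 3 and sham 8 weeks replicates 1 and 3 (0.0571 to 0.162). Timp4 read 5.67, 5.23 and 4.02 in OA at 8 weeks, against 2.14, 2.24 and 2.11 in OA at 2 weeks, and 5.83, 2.90 and 2.94 in sham at 8 weeks, so the high values include sham 8 weeks replicate 1. Its 2-week values lie under the filter level.

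Among 12 tested genes that activate, anchor or clear MMPs, 0 passed at 8 weeks (median -0.10, all probe sets 0.01). The smallest p values were those of A2m, a general protease trap (-1.32 ± 0.39, adjusted p = 0.0998), and Plau, urokinase, which starts the plasmin cascade that activates MMP precursors (-2.11 ± 0.68, adjusted p = 0.118). With array weights A2m (adjusted p = 0.0466) and Plau (0.0287) passed, as did 1567 of all 15934 probe sets. Plau also passed without sham 8 weeks replicate 1 (0.0497). Of 16 listed transcription factors known to act on MMP promoters, Runx2, Fosl1, Fosl2, Cebpb and Lef1 were not tested. Among the 11 tested, 0 passed (median 0.10). The AP-1 genes Jun (1.004 ± 0.46, adjusted p = 0.245) and Fosb (1.03 ± 0.49, adjusted p = 0.259) had the smallest p values. Of 12 listed cytokine and receptor genes that induce MMPs, 6 were tested, and all 6 were receptors. The listed cytokine genes, such as Il1b, Tnf and Il6, were not tested. Among the 6 receptors 0 passed (median -0.36), with the interleukin 1 receptor gene Il1r1 at 0.48 ± 0.20 (adjusted p = 0.205) and Tlr2 at -2.85 ± 1.39 (adjusted p = 0.269). These 3 lists, of 12, 11 and 6 tested genes, held 3 genes with an unadjusted limma p under 0.05, A2m, Plau and Il1r1. Of all 15934 probe sets, 3423 had such a p at 8 weeks.

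Of 10 tested substrates of the MMPs in the matrix, 2 fell and 0 rose at 8 weeks (median -0.05). Of all probe sets 1.95% fell and 1.51% rose. Col9a1, a chain of the collagen that coats type II fibrils, averaged 14.96 in OA and 15.45 in sham (-0.48 ± 0.10, adjusted p = 0.0296). The proteoglycan gene Bgn averaged 14.27 in OA and 14.80 in sham (-0.52 ± 0.11, adjusted p = 0.0368). Both calls ended with the muscle covariate (adjusted p = 0.284 for Col9a1 and 0.246 for Bgn), equal array medians (0.0867 and 0.0979), both number 1 arrays at 8 weeks left out (0.0861 and 0.121) and only the 6 arrays compared (0.148 and 0.163). The call of Col9a1 ended with the replicate block within each time (adjusted p = 0.0561). It also ended without any 1 of 4 arrays, OA 8 weeks replicates 1 and 2 and sham 8 weeks replicates 2 and 3 (adjusted p from 0.0605 to 0.0875). The call of Bgn ended without any 1 of 9 arrays, those 4, sham 8 weeks replicate 1, and replicates 1 and 3 of OA and 1 and 2 of sham at 2 weeks (adjusted p from 0.0543 to 0.126). At 2 weeks 0 genes of these 5 lists passed.

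The genes whose profile over the 12 arrays was most like a member's were sought among 9185 others. For Mmp3 they were Adam17, the sheddase of membrane-bound growth factors and cytokines (Pearson r = 0.93, Spearman rho = 0.55), the carnitine transporter gene Slc22a5 (r = 0.85, rho = 0.63) and Wdr44 (r = 0.83, rho = 0.65). Within the 6 arrays of 8 weeks r with Mmp3 was 0.98, 0.99 and 0.90, and within those of 2 weeks it was -0.67, 0.44 and 0.10. For Mmp13 they were the myeloid lectin gene Clec4a (r = 0.97, rho = 0.91), the kinesin gene Kifc1 (r = 0.97, rho = 0.78) and the nucleotide kinase gene Cmpk1 (r = 0.97, rho = 0.75), with r of 0.96, 0.96 and 0.98 at 8 weeks and 0.44, -0.10 and -0.26 at 2 weeks. For both MMPs the likeness was close within the 8-week arrays and weak or opposite within the 2-week arrays. For Timp1 they were the galectin 3 gene Lgals3 (r = 0.97, rho = 0.90), the retinoic acid binding protein gene Crabp2 (r = 0.96, rho = 0.86) and the tenascin gene Tnn (r = 0.95, rho = 0.94), with r at or above 0.93 at both times. These correlations are descriptions over arrays that share time, normalization and surgery group, chosen as the highest of many.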

How the data were processed

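Total RNA of rat knee articular cartilage was labelled with biotin and hybridized to 1-colour Affymetrix arrays, 3 for each of 4 groups, per the labels' protocols. The deposited log2 values came from GCRMA, run by the authors per the submitters' processing notes, which corrects background by probe sequence, normalizes arrays to each other and gives 1 value per probe set. Its version is not given in the sources used here. That the scale is log2 was read from the range of the values.

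The values were used without further normalization. Symbols came from the array's annotation, where 20832 probe sets carried exactly 1 symbol, 436 several and 9831 none, and the gene IDs of all 10 members were found in the current RefSeq table with the same symbols. After leaving out 57 control probe sets, 15934 probe sets above log2 4 in at least 3 of 12 arrays were fitted with limma 3.58.1 in R 4.3.3 (1 mean per group, empirical Bayes, 8 residual and 1.94 prior degrees of freedom), and p-values were adjusted over all of them by Benjamini and Hochberg's method, with calls below 0.05. The comparisons were OA minus sham at each time, the difference between both, and 8 minus 2 weeks within OA and within sham. The script was tested on simulated data. The number of arrays limits the precision. Plots were drawn with matplotlib 3.10.9 in Python 3.11.15, and tables with numpy 2.4.6 and pandas 2.3.3.

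The labels do not say that a replicate number is shared between groups. Deviations from the group means correlated between OA and sham arrays of the same number at 0.33, 0.36 and 0.53 at 2 weeks and at 0.24, 0.24 and 0.12 at 8 weeks. OA 8 weeks replicate 3 correlated more with a sham array of another number (0.14), so the pairing at 8 weeks is uncertain. A replicate block within each time was fitted as an alternative, and its value is given where it changes a call. Across the times, arrays of the same number correlated from -0.50 to 0.24. In sham each array correlated more with an array of another number, at up to 0.64. In OA the same number was the best match for replicates 2 (0.24) and 3 (0.05) and not for replicate 1. A pairing across the times is therefore uncertain in OA and was not seen in sham.

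The members and all gene lists were chosen with earlier results of these data known. All members were named with all their probe sets. From each pathway list (other MMPs and TIMPs, activation and clearance, transcription factors, cytokines and receptors, substrates) up to 4 called genes were named, and otherwise those with the 2 smallest p values, by the probe set above the filter with the highest mean. For Mmp3, Mmp13 and Timp1 the 3 genes with the highest Pearson r over 12 arrays were named, passing over symbols that start with LOC or RGD.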

Additional observations from a re-analysis of the deposited data

Results flagged for a closer look

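The OA effect on Mmp3 differed between the times by the interaction test of limma. It was 1.57 ± 0.14 at 8 weeks and 0.18 ± 0.14 at 2 weeks on the log2 scale, a difference of 1.39 ± 0.20 (adjusted p = 0.0415), and it was higher in OA in 3 of 3 arrays against all sham arrays at 8 weeks. The call ended in 14 of 22 alternatives, among them the replicate block within each time (adjusted p = 0.0692).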

How the results depend on the processing

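Of the 14 member probe sets, 3 were called at 8 weeks. The count was 5 with a replicate block within each time, 1 with the muscle marker level as a covariate and 0 with only the 6 arrays compared, and it ranged from 1 to 5 when single arrays were left out. The lowest of these was without sham 8 weeks replicate 3 and the highest without sham 8 weeks replicate 1. The interaction count of 1 became 0 with no filter, equal array medians, a replicate block, a replicate block within each time or the muscle covariate, 2 with array weights, 4 without both number 1 arrays at 8 weeks, and 0 to 3 with single arrays left out. The 2-week count was 0 throughout. With single arrays left out, the count over time was 4 to 5 in OA and 3 to 3 in sham. Leaving out arrays lowers the degrees of freedom, and for the other settings the cause was not tested. The replicate block within each time was not run over time, since its terms are separate for each time. Among values given one by one, signs turned only for values that were not called. Over the 59 member values that were not called, 36 turned sign in at least 1 alternative. Over time in OA, Mmp3 was -0.17 with equal medians and -0.13 to 0.13 with single arrays left out. Mmp13 at 2 weeks was 0.057 with the muscle covariate and -0.18 to 0.17 with single arrays left out. At 8 weeks, the muscle covariate gave 0.13 for Timp2 and -0.051 for Mmp24. Without a change of sign or a call, the same covariate moved Mmp16 to 0.62, Jun to 0.47, Fosb to 0.66 and Il1r1 to 0.25. It moved A2m to -0.91 and the dim probe set of Mmp14 to -0.064. With single arrays left out at 8 weeks, Mmp16 ranged from -0.038 to 0.52, Timp1 from -0.15 to 0.58 and a dimmer Timp3 probe set from -0.075 to 0.70, each lowest without sham 8 weeks replicate 1. Equal array medians moved the median of all probe sets between the times in OA to -0.09, against 0.09 as deposited. Over all probe sets, 552 were called at 8 weeks, against 27 with only the 6 arrays compared, 35 with the muscle covariate, 283 with equal medians, 1037 with the block within each time and 1567 with array weights.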
